A study of Mus musculus with 12 samples.

Results

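The change in gene expression over 2 days of facial growth, from embryonic day (E) 10.5 to E12.5, was measured in the mouse maxillary prominence. The comparison was defined by the stage in the sample labels alone and uses 6 of the 12 libraries of the series, 3 labelled E10.5 and 3 labelled E12.5, and the 18365 genes that passed a filter on low counts. All embryos were wild type C57BL/6, the labels name no transgene, deletion or treatment in either group, and the mice used were 8 to 12 weeks old. Intact prominences were dissected on ice-cold saline, and RNA was taken from tissue of 7 littermates, so a library holds all cell types of the swelling. The labels call the 3 RNA samples of a stage independent. They do not say whether the 7 littermates made up 1 library or a whole stage, or whether libraries came from separate litters. The p-values then measure only the spread between these libraries, which may be technical in part. Xist, an RNA of female cells described at the end, differed widely between libraries of 1 stage. Poly-A RNA was sequenced, and gene counts summed to 30332754 to 31986431 per library. E11.5 libraries from the same sample block are given as values beside some genes, with no comparison of their own.

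The maxillary prominence is a paired swelling of the early face in which mesenchyme, mostly of neural crest origin, proliferates under a surface epithelium that sends it Shh, Fgf, Bmp and Wnt signals. It later forms the upper jaw and cheek, and its medial side grows out as the palatal shelf. Between these stages the tissue passes from an early, rapidly growing state toward shelf outgrowth and the start of muscle, cartilage and bone. In RNA from whole tissue, fewer cells of a type and less RNA per cell cannot be told apart.

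Over the 2 days, genes of sugar metabolism, ribosome assembly, cholesterol synthesis and cell division fell together with the Lin28 growth genes, while genes of interstitial matrix, palate growth, muscle fibres and keratinocytes rose. Levels are given as CPM, the counts scaled to the effective size of each library, listed in the order of replicates 1, 2 and 3 or as mean ± SD with n = 3 libraries a stage. A gene was called at an adjusted p under 0.05 in edgeR's quasi-likelihood test. Of all tested genes 53.5% were called, 28.0% higher at E12.5 and 25.5% lower. At least 2-fold changes were uneven, with 15.1% of tested genes higher and 4.18% lower. Changes of at least 8-fold were seen in 599 genes that rose and 91 that fell. The median log2 fold change of all tested genes was 0.06.

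The direction of change went with abundance. Of the 2326 genes with a mean of at least 100 CPM, 1394 were lower at E12.5 and 225 higher, and their median log2 fold change was -0.34. In the next class, from 10 to 100 CPM, 2573 genes were lower and 1936 higher. Genes between 1 and 10 CPM went the other way, with 1829 higher and 518 lower. Of 2163 noncoding genes that are not pseudogenes, 652 were higher and 108 lower. Alignments that fell outside annotated genes moved with stage too, and their share was 2.67%, 1.92% and 4.88% in the E10.5 libraries and 5.03%, 5.43% and 5.25% in those of E12.5. With that share as a covariate 2754 genes were higher and 2861 lower, and with E10.5 replicate 3 alone standing for E10.5 the numbers were 3126 and 3072. No gene called in the comparison was called in the opposite direction under any alternative. Scaling by total counts in place of TMM moved the median by 0.25 and made 74% of calls higher and 26% lower, against 52.4% and 47.6%, so the balance of rises and falls over all genes depends on the scaling.

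**Figure D1:**
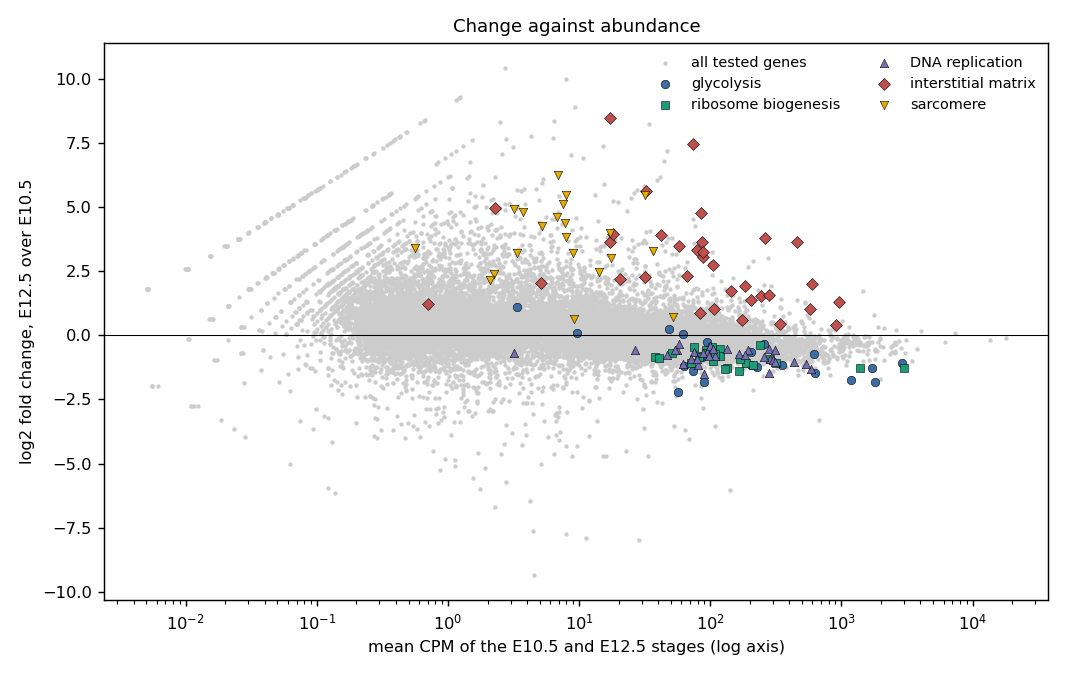
Each grey point is 1 of the 18365 tested genes, with mean CPM of the 2 stages on a log axis and the log2 fold change of E12.5 over E10.5; coloured symbols mark members of 5 gene lists. Most glycolysis, ribosome biogenesis and DNA replication genes lie to the right and below 0, while all 34 matrix genes and all 21 sarcomere genes lie above 0.

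Genes of the Lin28 programme were among the deepest falls. The list holds the RNA-binding Lin28 proteins and growth genes grouped with them, among them other RNA-binding proteins and DNA-binding, chromatin and membrane proteins. The Lin28 genes are active in early embryos and shut down as let-7 microRNAs mature. Lin28a (ENSMUSG00000050966, mm10 chromosome 4, 134003330 to 134018841, minus strand), which binds let-7 precursors and blocks their processing, measured 43.6, 58.6 and 67.6 CPM at E10.5 and 0.343, 0.0916 and 0.232 CPM at E12.5 (log2 fold change -7.97, SE 0.28, adjusted p = 5.10e-10). All 3 E12.5 libraries were under 1 CPM, far below every E10.5 library. Igdcc3, an immunoglobulin superfamily membrane protein (mm10 chromosome 9, 65141189 to 65185872, plus strand), gave 234, 284 and 312 CPM at E10.5 and 4.58, 3.54 and 4.44 CPM at E12.5 (log2 fold change -6.04, SE 0.19, adjusted p = 3.84e-10), against a mean of 11.8 CPM at E11.5. Of the 18 tested members 16 were lower and 2 higher (1 higher without E10.5 replicate 2 or E12.5 replicate 1), and 12 were lower by at least 2-fold, with a median log2 fold change of -1.60. Over all tested genes 25.5% were lower and 28.0% higher, and 4.18% were lower by at least 2-fold. Lin28b fell from 131 ± 10.8 to 7.88 ± 2.02 CPM, the stem cell factor Sall4 from 43.7 ± 7.13 to 1.90 ± 0.353 CPM and the RNA-binding ubiquitin ligase Trim71 from 64.2 ± 2.00 to 2.50 ± 1.23 CPM. Smaller falls were seen in the mRNA-binding Igf2bp1 (-1.57 on the log2 scale) and the chromatin protein Hmga2 (-0.70). Igdcc4, a paralogue of Igdcc3, went against the list and rose from 32.8 ± 6.07 to 68.0 ± 11.2 CPM. Arid3b and the phosphatase Dusp9, outside the list and among the 6 falls with the smallest adjusted p, fell from 73.7 ± 5.91 to 12.0 ± 1.10 CPM and from 199 ± 10.5 to 17.3 ± 1.12 CPM.

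Genes for glucose uptake, glycolysis and lactate export fell at nearly every step of the pathway. Of 21 tested members 16 were lower and 2 higher, and 12 were lower by at least 2-fold, with a median log2 fold change of -1.14. Many of these genes are abundant, and 59.9% of all tested genes of at least 100 CPM were lower, with a median of -0.34. The higher count was 1 without E10.5 replicate 2, E10.5 replicate 3 or E12.5 replicate 3 and 0 with the outside-gene share as covariate. With that covariate 14 were lower. Eno1, which makes phosphoenolpyruvate and was among the 8 genes with the largest falls in CPM, measured 2713, 3162 and 2506 CPM at E10.5 and 759, 909 and 713 CPM at E12.5 (log2 fold change -1.81, SE 0.13, adjusted p = 1.72e-07), and no library of either stage overlapped the other. Ldha, the enzyme that turns pyruvate into lactate, gave 1754, 2133 and 1524 CPM at E10.5 and 519.8, 649 and 449 CPM at E12.5 (log2 fold change -1.74, SE 0.15, adjusted p = 9.22e-07). The lactate exporter Slc16a3 gave 101, 86.6 and 93.8 CPM at E10.5 and 15.7, 25.9 and 18.4 CPM at E12.5 (log2 fold change -2.23, SE 0.16, adjusted p = 2.35e-07). The E10.5 and E12.5 ranges of both lactate genes were apart, and their E11.5 means of 929 and 43.4 CPM lay between them. Hexokinase 2 (Hk2), which traps glucose in the cell, fell from 87.9 ± 4.38 to 38.2 ± 2.23 CPM, phosphofructokinase Pfkl from 319 ± 29.4 to 136 ± 23.3 CPM, pyruvate kinase Pkm from 2427 ± 351 to 1005 ± 67.3 CPM and Gapdh, often used as a reference gene, from 3924 ± 465 to 1877 ± 366 CPM. The glucose transporters did not move alike: Slc2a3 fell from 140.4 ± 19.1 to 39.9 ± 1.47 CPM, while Slc2a1 stood at 103 ± 5.58 and 86.3 ± 15.8 CPM and was not called (adjusted p = 0.0905). Among other isoforms of these enzymes, Pfkp stood at 9.31 ± 1.93 and 9.79 ± 0.474 CPM and was not called (adjusted p = 0.713), and the aldolase Aldoc rose from 2.12 ± 0.444 to 4.55 ± 2.19 CPM, a call that ended with the outside-gene share as covariate and with E10.5 replicate 3 alone. Per kilobase of exon, Hk2 levels were 14.7 and 6.40 CPM at E10.5 and E12.5, against 5.19 and 6.20 for Hk1, the isoform of most adult tissues. The liver and red cell pyruvate kinase Pklr, in no list, fell from 9.93 ± 4.35 to 0.302 ± 0.0594 CPM and shares 21.97% of its exon bases with another gene. Several of these genes, Gapdh, Eno1, Pkm and Ldha among them, have processed pseudogenes, and their counts depend on how reads shared with those copies were treated.

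Promoter stretches of both lactate genes are shown because the pair stands at the end of this pathway and fell together. They are RefSeq sequence of build GRCm38.p6, 5′ to 3′ on the gene's strand and ending at the base before the transcript start, and capitals mark ACGTG, the core of the hypoxia response element, on either strand. Ldha lies at chr7:46845744-46845803, plus strand, and Slc16a3 at chr11:120949027-120949066, plus strand.
Ldha: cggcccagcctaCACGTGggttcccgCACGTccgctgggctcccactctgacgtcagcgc
Slc16a3: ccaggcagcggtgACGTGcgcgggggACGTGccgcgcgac
Each stretch holds 2 separate groups of capitals, and the first in Ldha is CACGTG, the E-box of Myc family factors, which contains the core on both strands. Of 32 promoter windows of 250 bases for 20 glycolysis genes, 12 held ACGTG (37.5%), against 16.6% of all 32851 windows. Genes with a match included Pfkm and Slc2a1, which were not called. This motif was picked after the values were seen. So was the sterol element TCACNCCAC, found in 1 of 18 windows of cholesterol synthesis genes (5.56%), against 1.05% of all windows. A match describes letters and is no evidence of a bound factor.

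All 25 genes of ribosome biogenesis fell, 9 of them at least 2-fold, with a median log2 fold change of -0.88, and 23 were lower with the outside-gene share as covariate. Many of them are abundant, and over all tested genes of at least 100 CPM 59.9% were lower with a median of -0.34. The nucleolar chaperone Npm1, the called gene with the largest fall in CPM, measured 4218, 4974 and 3600 CPM at E10.5 and 2038, 1849 and 1394 CPM at E12.5 (log2 fold change -1.28, SE 0.15, adjusted p = 1.45e-05). Nucleolin (Ncl), which packs ribosomal DNA and processes its transcript, gave 1909, 2101 and 1852 CPM at E10.5 and 878, 716 and 842 CPM at E12.5 (log2 fold change -1.27, SE 0.10, adjusted p = 4.38e-07). The lowest E10.5 library stood above the highest E12.5 library for each of them. Nhp2 and Dkc1, subunits of the complex that pseudouridylates ribosomal RNA, fell from 239 ± 51.1 to 90.9 ± 20.4 CPM and from 189 ± 16.6 to 78.9 ± 9.64 CPM, and the nucleolar GTPase Gnl3 from 184 ± 17.6 to 74.5 ± 13.5 CPM. At the polymerase I end of the pathway the falls were smaller, with Tcof1, mutated in Treacher Collins syndrome, going from 139.7 ± 5.46 to 95.3 ± 10.8 CPM and Polr1b from 63.7 ± 1.99 to 39.2 ± 1.67 CPM. Mycn, the Myc family factor of embryonic growth, dropped in the same libraries, with 139, 137 and 132 CPM at E10.5 and 37.6, 30.7 and 34.6 CPM at E12.5 (log2 fold change -1.98, SE 0.10, adjusted p = 8.55e-09). The proteins of the ribosome itself did not share this pattern. Of 80 cytosolic ribosomal protein genes 11 were lower and 2 higher (median -0.24), a direction that turned with total-count scaling (3 lower and 8 higher), and their summed CPM overlapped between stages (75266 to 111293 at E10.5 and 54115 to 91659 at E12.5). Their count of lower genes ran from 4 without E10.5 replicate 2 and 5 without E12.5 replicate 3 to 29 without E10.5 replicate 3, with 7 and 22 without E10.5 replicate 1 and E12.5 replicate 2, and was 21 with replicate number as a block over all libraries and 30 with the block over the compared stages. Of 86 nuclear oxidative phosphorylation genes 20 were lower and 2 higher (median -0.19), which also turned with total-count scaling (8 lower and 14 higher), and leaving out E10.5 replicate 1, 2 or 3 gave 13, 12 or 37 lower, and the block over the compared stages 31. With 11 and 20 lower genes, neither list exceeded the 25.5% lower of all tested genes, and both lay far below the 28.0% higher. Without E12.5 replicate 3 the higher genes numbered 5 in the ribosomal protein list and 9 in the oxidative phosphorylation list. With the outside-gene share as covariate 1 ribosomal protein gene and 3 oxidative phosphorylation genes were lower. Of 13 mitochondrially encoded genes 2 were higher and none lower (median 0.20), with 1 higher without E10.5 replicate 3 and none without E12.5 replicate 2. Among abundant chaperones, Hsp90aa1 fell from 3004 ± 548 to 935 ± 114 CPM, Hspa8 from 4634 ± 497 to 2301 ± 490.5 CPM and Hsp90ab1 from 3722 ± 97.7 to 2332 ± 116 CPM.

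All 21 genes of cholesterol synthesis and uptake fell as well, with a median log2 fold change of -0.80 and 5 falls of at least 2-fold. With the outside-gene share as covariate 17 were lower. Over all tested genes, 59.9% of those of at least 100 CPM and 34.3% of those from 10 to 100 CPM were lower. The sterol pathway supplies membrane and also the cholesterol that modifies hedgehog proteins. Idi1, which isomerises the building block of all isoprenoids, measured 83.5, 95.3 and 72.3 CPM at E10.5 and 25.7, 23.7 and 24.3 CPM at E12.5 (log2 fold change -1.77, SE 0.10, adjusted p = 2.54e-08). Msmo1, a demethylase late in the pathway, gave 147, 169 and 122.6 CPM at E10.5 and 83.3, 71.2 and 54.8 CPM at E12.5 (log2 fold change -1.07, SE 0.14, adjusted p = 3.93e-05). The E10.5 and E12.5 libraries did not overlap for either gene. The synthase Hmgcs1 fell from 354 ± 47.4 to 177 ± 20.1 CPM and the sterol sensor Insig1 from 104 ± 15.8 to 50.7 ± 5.72 CPM. Scd1, which desaturates fatty acids and belongs to no list here, fell from 91.8 ± 0.521 to 29.5 ± 1.80 CPM and was among the 6 falls with the smallest adjusted p. At E11.5 Hmgcs1 averaged 327 CPM and Scd1 81.9 CPM.

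Genes of the replication and mitosis lists fell by smaller amounts but with few exceptions, and the histone genes described further on did not follow them. All 32 DNA replication genes were lower, 8 of them at least 2-fold, with a median log2 fold change of -0.77. The mitosis list, for genes active in the G2 and M phases, had 26 lower and none higher of 28 tested, 4 at least 2-fold, with a median of -0.79. With the outside-gene share as covariate 25 replication genes and 22 mitosis genes were lower. Over all tested genes of at least 100 CPM, the class that holds many of them, 59.9% were lower with a median of -0.34. Mcm10, which loads at origins as they fire, measured 136, 141 and 122 CPM at E10.5 and 53.7, 45.3 and 43.1 CPM at E12.5 (log2 fold change -1.49, SE 0.10, adjusted p = 9.69e-08). The ribonucleotide reductase subunit Rrm2 gave 426, 434 and 380.0 CPM at E10.5 and 167, 143 and 143 CPM at E12.5 (log2 fold change -1.45, SE 0.09, adjusted p = 8.17e-08). E12.5 libraries of both genes sat below every E10.5 library. The sliding clamp Pcna fell from 841 ± 179 to 336 ± 71.7 CPM, the licensing factor Cdc6 from 111 ± 10 to 49.7 ± 13.3 CPM and the helicase subunit Mcm6 from 369 ± 13.7 to 250.9 ± 22.1 CPM. Fen1, Gins2 and Chaf1a share 84.2%, 67.3% and 52.5% of their exon bases with other genes, so their counts are uncertain. Among mitosis genes the checkpoint kinase Bub1 fell from 252 ± 26.1 to 108 ± 15.6 CPM. Cyclin B1 (Ccnb1), the partner of Cdk1 at mitotic entry, gave 389.6, 455 and 354 CPM at E10.5 and 240.4, 189 and 159.6 CPM at E12.5 (log2 fold change -1.03, SE 0.14, adjusted p = 4.14e-05). Top2a, which untangles replicated chromosomes, gave 1335, 1492 and 1195 CPM at E10.5 and 855, 658 and 666 CPM at E12.5 (log2 fold change -0.88, SE 0.12, adjusted p = 5.25e-05) with a mean of 1455 CPM at E11.5. Each of the 3 was lower in every E12.5 library than in any E10.5 library. Cdc20, an activator of the anaphase-promoting complex, fell from 230.4 ± 12.1 to 126 ± 2.53 CPM, the spindle motor Kif11 from 245 ± 7.89 to 135 ± 12.4 CPM and the proliferation marker Mki67 from 816 ± 44.2 to 572 ± 68.6 CPM. Cdk1 itself fell from 296 ± 44.0 to 171 ± 35.3 CPM, a call that ended with the outside-gene share as covariate.

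Promoters of 4 mitosis genes and 2 replication genes are shown because these genes fell together and their promoters hold motifs known from cell cycle genes. In the mitosis promoters capitals mark the CHR element TTTGAA and the CCAAT box, on either strand (TTCAAA and ATTGG read on the other strand). In the replication promoters they mark the E2F sites TTTGGCGC, TTTCCCGC, TTTGCCGC or TTTCGCGC on either strand, which can overlap each other. Cdk1 lies at chr10:69352913-69353012, minus strand, Top2a at chr11:99024190-99024299, minus strand, Kif11 at chr19:37376272-37376381, plus strand, Cdc20 at chr4:118437344-118437453, minus strand, Mcm6 at chr1:128359706-128359825, minus strand and Cdc6 at chr11:98908001-98908150, plus strand (GRCm38.p6, RefSeq).
Cdk1: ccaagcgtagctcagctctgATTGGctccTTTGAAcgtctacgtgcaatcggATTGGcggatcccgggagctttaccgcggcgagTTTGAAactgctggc
Top2a: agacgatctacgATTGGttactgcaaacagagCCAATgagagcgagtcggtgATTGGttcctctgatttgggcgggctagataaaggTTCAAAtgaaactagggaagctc
Kif11: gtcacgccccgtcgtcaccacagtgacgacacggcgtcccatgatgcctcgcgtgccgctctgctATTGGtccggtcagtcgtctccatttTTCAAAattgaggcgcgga
Cdc20: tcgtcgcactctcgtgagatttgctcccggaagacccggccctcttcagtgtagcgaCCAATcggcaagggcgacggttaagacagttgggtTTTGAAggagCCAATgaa
Mcm6: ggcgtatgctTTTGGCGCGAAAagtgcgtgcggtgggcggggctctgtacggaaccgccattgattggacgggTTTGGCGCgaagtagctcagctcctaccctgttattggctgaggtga
Cdc6: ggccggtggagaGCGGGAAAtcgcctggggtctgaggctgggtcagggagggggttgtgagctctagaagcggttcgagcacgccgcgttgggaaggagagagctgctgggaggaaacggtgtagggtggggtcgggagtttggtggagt
In all 4 mitosis promoters a CHR element lies close to the start, with 1 or more CCAAT boxes before it. Of 26 windows of 250 bases for 24 mitosis genes, 10 held both motifs (38.5%), against 5.55% of all windows, while a CCAAT box, with or without a CHR element, was found in 84.6% against 33.8%. An E2F site was found in 8 of 31 windows of replication genes (25.8%), against 1.86% of all windows. In Mcm6 a pair of sites overlaps, which gives the longest run of capitals. These are matches to letters only, and a promoter without a match may use other sites.

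Some regulators that slow the cycle rose. Cdkn1c, an imprinted inhibitor of cyclin-dependent kinases, measured 116, 122 and 103 CPM at E10.5 and 212, 255 and 276 CPM at E12.5 (log2 fold change 1.12, SE 0.10, adjusted p = 1.18e-06). Cdkn2c, which blocks Cdk4 and Cdk6, gave 3.46, 3.44 and 3.29 CPM at E10.5 and 7.29, 10.7 and 10.4 CPM at E12.5 (log2 fold change 1.48, SE 0.15, adjusted p = 4.02e-06). Neither gene had overlapping libraries, though Cdkn1c shares 30.6% of its exon bases with another gene. Of 11 tested D cyclins, their kinases and inhibitors 4 were higher and 2 lower (median 0.03, and 1 lower without E10.5 replicate 1 or 2), against 28.0% and 25.5% of all tested genes. The inhibitors Cdkn1a and Cdkn2d were not called, at 20.8 ± 1.19 and 15.1 ± 6.15 CPM and 24.9 ± 4.59 and 21.5 ± 3.91 CPM (adjusted p = 0.0716 and 0.234), though Cdkn1a was called lower with replicate number as a block. Replication-dependent histone genes, most of whose transcripts lack a poly-A tail and are captured poorly by poly-T selection, had 12 higher and 1 lower of 44 tested (median 0.57), and 8 higher with the outside-gene share as covariate. Their higher share was thus near the 28.0% of all tested genes, and their lower share was below the 25.5%. Among the D cyclins and their kinases, cyclin D1 (Ccnd1) was lower, from 208 ± 15.6 to 168 ± 26.3 CPM. Its call ended without E10.5 replicate 1 or 2 or without E12.5 replicate 2.

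**Figure D2:**
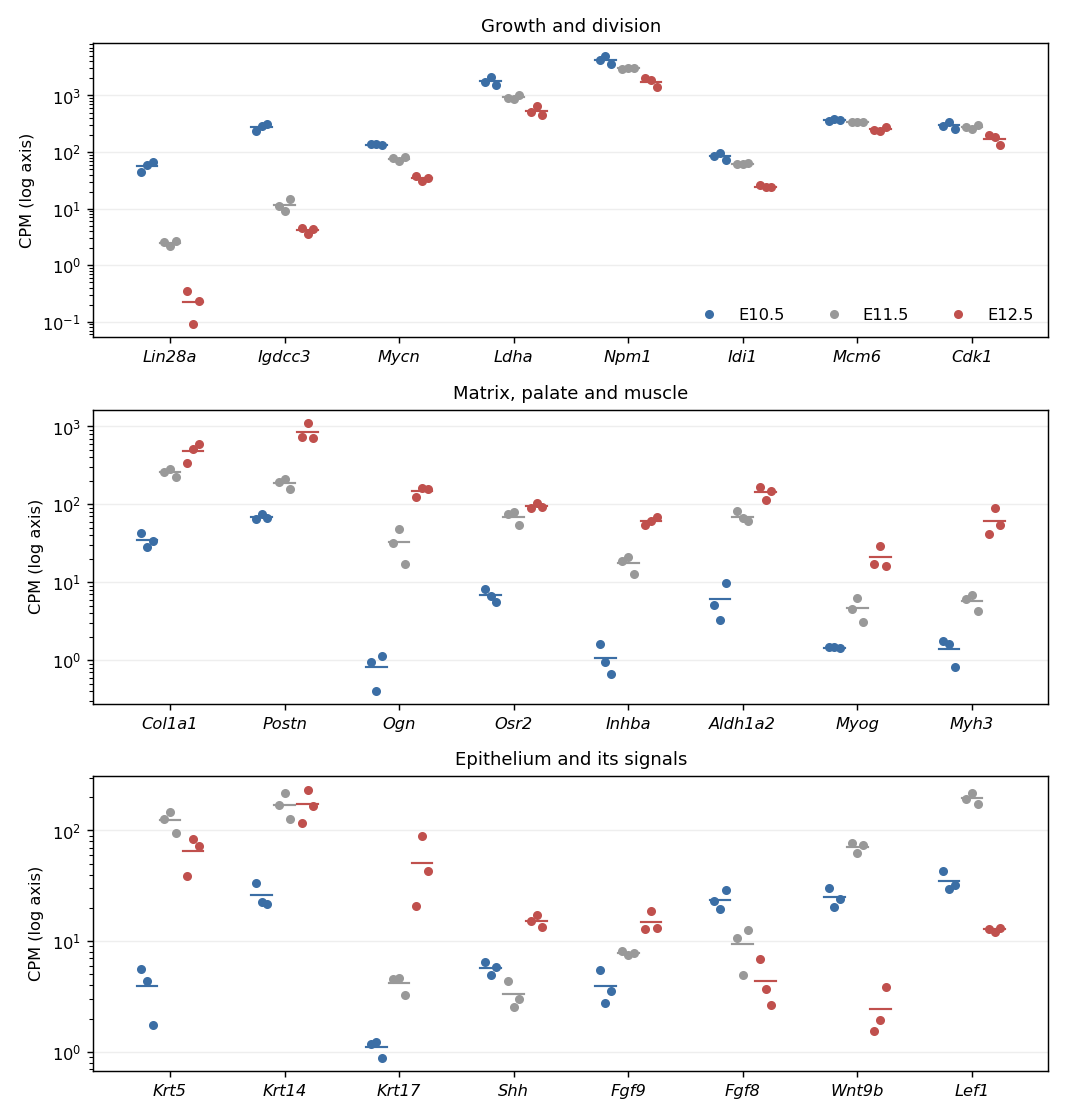
CPM per library on a log axis for 24 genes at E10.5 (blue), E11.5 (grey) and E12.5 (red), with points for the 3 libraries and a bar for their mean. Lin28a spans from 43.6 to 67.6 CPM at E10.5 to 0.0916 to 0.343 CPM at E12.5, and Lef1, Wnt9b and Krt5 have their highest mean at E11.5.

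Interstitial matrix rose without exception among the genes tested. All 34 members were higher, against 28.0% of all tested genes, and 30 of them at least 2-fold, against 15.1%, with a median log2 fold change of 2.28 against 0.06 over all genes, and their summed CPM went from 2928 to 3658 at E10.5 to 8913 to 10180 at E12.5. Col1a1, a chain of type I collagen, measured 42.4, 28.8 and 33.6 CPM at E10.5 and 343, 508 and 603 CPM at E12.5 (log2 fold change 3.79, SE 0.22, adjusted p = 3.78e-08). Postn, a matrix protein that binds collagen and integrins, gave 65.8, 75.3 and 66.2 CPM at E10.5 and 733, 1111 and 711 CPM at E12.5 (log2 fold change 3.62, SE 0.18, adjusted p = 8.55e-09). Osteoglycin (Ogn, ENSMUSG00000021390, mm10 chromosome 13, 49608046 to 49624501, plus strand), a small leucine-rich proteoglycan, gave 0.943, 0.407 and 1.12 CPM at E10.5 and 125, 160.3 and 158 CPM at E12.5 (log2 fold change 7.46, SE 0.40, adjusted p = 1.82e-08). Every E12.5 library of these 3 genes stood far above the E10.5 range. The related proteoglycans asporin (Aspn) and lumican (Lum) rose from 0.0911 ± 0.0665 to 34.0 ± 14.5 CPM and from 16.9 ± 0.979 to 159 ± 51.9 CPM. Other large rises were those of collagen XIV (from 1.29 ± 0.256 to 63.5 ± 15.2 CPM), tenascin C (from 6.00 ± 4.57 to 164 ± 21.9 CPM), elastin (from 5.18 ± 1.62 to 78.6 ± 16.2 CPM) and the cross-linking enzyme Lox (from 9.44 ± 2.53 to 106 ± 36.6 CPM). Type III collagen was already abundant and rose less, from 556 ± 61.8 to 1351 ± 119.6 CPM. Versican (Vcan), which swells the hyaluronan-rich matrix of the early face, was the member with the least change (log2 fold change 0.40, SE 0.12, adjusted p = 0.0146), its libraries overlapped between stages, and the call ended without E10.5 replicate 2 or E12.5 replicate 1. Matn4, an adaptor protein of the matrix, had 3 counts over the E10.5 libraries and 1871 over those of E12.5 (ratio 541, 95% exact counting interval 185 to 2626). Such intervals cover counting error only. Between libraries of 1 stage, chi-square per degree of freedom over genes was at least 14.6. This is a ratio of variances, near 1 for counting error alone, taken over many genes and not for a single gene such as Matn4. With E10.5 replicate 3 alone, 31 of the 34 remained called.

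Regulators of palate growth rose over the same days in which the shelf grows out. Of 21 tested members 16 were higher and 2 lower, 14 higher by at least 2-fold, with a median log2 fold change of 2.09. The shares over all tested genes were 28.0% higher and 25.5% lower, with 15.1% higher by at least 2-fold. Osr2, a zinc finger factor needed for shelf growth (ENSMUSG00000022330, mm10 chromosome 15, 35296098 to 35303305, plus strand), measured 8.10, 6.76 and 5.59 CPM at E10.5 and 89.5, 104 and 92.2 CPM at E12.5 (log2 fold change 3.80, SE 0.16, adjusted p = 2.96e-09). Inhba, the subunit of activin A, gave 1.61, 0.961 and 0.658 CPM at E10.5 and 53.8, 61.3 and 68.9 CPM at E12.5 (log2 fold change 5.84, SE 0.26, adjusted p = 3.57e-09). Meox2, a homeobox factor of the posterior shelf, gave 1.29, 1.11 and 1.12 CPM at E10.5 and 54.1, 44.3 and 46.5 CPM at E12.5 (log2 fold change 5.36, SE 0.16, adjusted p = 2.56e-10). All E12.5 libraries of the 3 genes stood far above E10.5. Osr2 averaged 69.8 CPM at E11.5 and Meox2 7.99 CPM. Tbx22, mutated in X-linked cleft palate, rose from 7.53 ± 2.05 to 46.2 ± 10.2 CPM, Sim2 from 6.86 ± 1.86 to 85.3 ± 19.3 CPM, Bmp3 from 1.05 ± 0.742 to 19.7 ± 7.84 CPM and Shox2, a factor of the anterior shelf, from 15.8 ± 3.50 to 86.6 ± 10.6 CPM. Tbx2 and Foxl2 were the members that fell, from 158 ± 45.4 to 94.1 ± 3.71 CPM and from 37.8 ± 5.93 to 18.7 ± 6.97 CPM, and both calls ended with the outside-gene share as covariate. Several factors that rose strongly were outside the list: Nfix, a nuclear factor I gene, went from 0.626 ± 0.188 to 92.3 ± 16.6 CPM, and Egfr, the receptor with the smallest adjusted p of all genes, from 10.98 ± 0.834 to 97.8 ± 8.84 CPM (adjusted p = 2.30e-10).

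Jaw patterning factors of the mesenchyme did not move as a block. Of 29 tested members 7 were higher and 10 lower, not far from the 28.0% and 25.5% of all tested genes. Their median was -0.32, and their summed CPM overlapped between stages (2207 to 2876 and 2339 to 2548). Msx2, a homeobox target of Bmp signalling, measured 76.0, 44.4 and 42.6 CPM at E10.5 and 5.33, 7.79 and 9.003 CPM at E12.5 (log2 fold change -2.88, SE 0.27, adjusted p = 2.01e-06). Pax9, a paired-box factor of palate and tooth, gave 13.7, 11.7 and 19.3 CPM at E10.5 and 81.8, 85.8 and 106 CPM at E12.5 (log2 fold change 2.62, SE 0.19, adjusted p = 2.71e-07). Six2 gave 63.8, 36.3 and 54.0 CPM at E10.5 and 219, 262 and 255 CPM at E12.5 (log2 fold change 2.25, SE 0.16, adjusted p = 1.71e-07). Msx2 libraries at E12.5 lay below the range of E10.5, and those of Pax9 and Six2 lay above it. Barx1, the factor of molar mesenchyme, rose from 103 ± 18.4 to 220.1 ± 20.2 CPM, while Alx4 and the neural crest factor Tfap2a fell from 118 ± 30.6 to 52.6 ± 7.71 CPM and from 36.8 ± 5.70 to 11.7 ± 0.429 CPM. Prrx1, which marks the mesenchyme as a whole, stood at 569.8 ± 97.0 and 507 ± 68.2 CPM and was not called (adjusted p = 0.279) so this marker of the labelled tissue was abundant at both stages. Of 18 Hox genes, which the upper face lacks, only 5 had enough counts to test, and the whole list summed to at most 2.96 CPM in any E10.5 or E12.5 library.

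Bone and cartilage genes rose in part. The osteoblast list, which includes bone matrix, had 12 higher and 2 lower of 18 tested (median 0.83). Of all tested genes 28.0% were higher and 25.5% lower. Runx2, which commits cells to bone, measured 7.47, 3.96 and 2.43 CPM at E10.5 and 47.3, 53.5 and 66.6 CPM at E12.5 (log2 fold change 3.6, SE 0.27, adjusted p = 2.97e-07), and its E11.5 mean was already 71.8 CPM. Sp7, which acts after Runx2, gave 1.40, 1.29 and 0.855 CPM at E10.5 and 3.65, 6.96 and 5.72 CPM at E12.5 (log2 fold change 2.21, SE 0.26, adjusted p = 1.39e-05). Neither gene overlapped between stages. Osteomodulin (Omd), a bone proteoglycan, rose from 0.253 ± 0.111 to 3.29 ± 1.17 CPM, while bone sialoprotein (Ibsp) was low throughout and fell from 2.53 ± 0.262 to 0.318 ± 0.2502 CPM. Of 21 cartilage genes 12 were higher and 3 lower (median 1.05), and 6 were lower with replicate number as a block over the compared stages. Aggrecan (Acan), the main proteoglycan of cartilage, gave 0.140, 0.0370 and 0.263 CPM at E10.5 and 2.09, 5.68 and 4.73 CPM at E12.5 (log2 fold change 4.76, SE 0.66, adjusted p = 5.28e-05), and collagen IX (Col9a3) rose from 5.13 ± 0.575 to 42.7 ± 11.6 CPM. The master factor Sox9 and its target Col2a1 were not called, at 93.3 ± 11.7 and 76.1 ± 17.8 CPM and 451 ± 92.8 and 373 ± 96.9 CPM (adjusted p = 0.102 and 0.422, with Sox9 lower at an adjusted p = 0.0179 when replicate number was a block), with E11.5 means of 33.2 and 176 CPM. The link protein Hapln1 fell from 85.7 ± 9.34 to 21.2 ± 7.93 CPM.

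Genes of muscle fibres and of muscle differentiation rose. All 21 sarcomere genes were higher, against 28.0% of all tested genes, and 19 of them at least 2-fold, against 15.1%. Their median log2 fold change was 3.83, and their summed CPM was 64.8, 72.5 and 80.6 at E10.5 and 308, 639.5 and 347 at E12.5. Embryonic myosin heavy chain (Myh3) measured 1.75, 1.63 and 0.822 CPM at E10.5 and 41.3, 90.8 and 54.0 CPM at E12.5 (log2 fold change 5.48, SE 0.34, adjusted p = 6.03e-08). Skeletal actin (Acta1) gave 0.244, 0.185 and 0.0987 CPM at E10.5 and 7.26, 22.02 and 11.3 CPM at E12.5 (log2 fold change 6.25, SE 0.50, adjusted p = 4.90e-07). Myogenin (Myog), the factor of terminal differentiation, gave 1.47, 1.48 and 1.42 CPM at E10.5 and 17.0, 29.6 and 16.4 CPM at E12.5 (log2 fold change 3.85, SE 0.28, adjusted p = 2.35e-07). E12.5 replicate 2 was the highest library for each of them. Of 16 muscle regulators 9 were higher and 1 lower (median 1.55), against 28.0% and 25.5% of all tested genes. Myod1 rose from 0.444 ± 0.0783 to 9.42 ± 1.59 CPM, and the fusion protein Mymk had 1 count over the E10.5 libraries and 304 over those of E12.5 (ratio 264, 95% exact counting interval 47.0 to 10450). Genes of muscle progenitors moved in different ways. Tbx1, a factor of the head muscle field, rose from 6.64 ± 3.39 to 21.7 ± 4.92 CPM. Pax7 stood at 2.22 ± 1.88 and 4.48 ± 2.34 CPM (adjusted p = 0.113) and Myf5 at 2.94 ± 2.81 and 2.36 ± 0.800 CPM (adjusted p = 0.592), while Vgll2, active in the early head muscle field, fell from 12.6 ± 2.77 to 3.39 ± 0.952 CPM.

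Promoters of a myosin light chain and of slow troponin I are shown as examples of sarcomere genes that rose with Myog, and capitals mark CAGCTG, an E-box form bound by Myod1 and Myog that reads the same on both strands. Mylpf lies at chr7:127211538-127211607, plus strand, and Tnni1 at chr1:135799341-135799420, plus strand (GRCm38.p6, RefSeq).
Mylpf: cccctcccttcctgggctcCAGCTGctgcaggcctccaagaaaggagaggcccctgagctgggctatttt
Tnni1: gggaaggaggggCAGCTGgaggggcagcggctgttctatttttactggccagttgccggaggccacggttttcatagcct
Mylpf went from 3.88 ± 0.883 to 31.3 ± 26.3 CPM and Tnni1 from 0.522 ± 0.243 to 13.01 ± 8.77 CPM. Of 22 windows of 250 bases for 19 sarcomere genes 9 held CAGCTG (40.9%), against 13% of all windows, and 1 of 12 windows of the muscle regulators did (8.33%). The plot of motif positions shows where the matches lie.

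**Figure D3:**
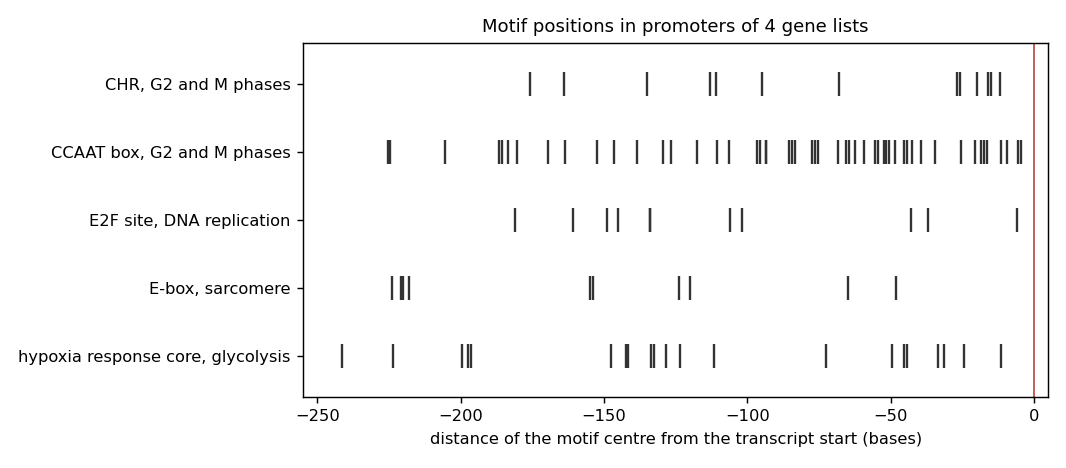
Distance in bases from the centre of each motif match to the transcript start (red line at 0), in the 250 bases before the start, for 5 pairs of motif and gene list; each tick is 1 match. Of 13 CHR matches 6 lie within 30 bases of the start, while the 10 E-box matches of sarcomere genes lie 48 to 224 bases before it.

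Epithelial genes rose more often than they fell, with keratins of stratified epithelium among those that rose. Of 26 basal epithelial genes 15 were higher and 3 lower (median 0.61, and 1 lower without E10.5 replicate 3 or E12.5 replicate 1 and 5 without E12.5 replicate 2), and of 18 suprabasal and periderm genes 15 were higher and none lower (median 1.75). For both lists, the shares over all tested genes were 28.0% higher and 25.5% lower. Krt5, the keratin of basal keratinocytes, measured 5.66, 4.33 and 1.74 CPM at E10.5 and 38.9, 84.4 and 72.0 CPM at E12.5 (log2 fold change 4.07, SE 0.37, adjusted p = 1.50e-06), with an E11.5 mean of 124 CPM above both. Krt17, a keratin of periderm and skin appendages, gave 1.19, 1.22 and 0.888 CPM at E10.5 and 20.7, 88.6 and 43.3 CPM at E12.5 (log2 fold change 5.53, SE 0.52, adjusted p = 1.84e-06). Neither overlapped between stages, and E12.5 replicate 2 was the highest library for both. Lama3, a chain of laminin 332 in the basement membrane, rose from 0.586 ± 0.220 to 26.0 ± 8.46 CPM, the plaque protein Pkp1 from 0.468 ± 0.357 to 13.2 ± 4.13 CPM and the barrier factor Klf4 from 2.67 ± 0.664 to 26.2 ± 6.35 CPM. Krt8, a keratin of simple epithelium, stood at 101 ± 5.46 and 91.1 ± 34.5 CPM and was not called (adjusted p = 0.561), and the integrin Itga6 fell from 119 ± 12.2 to 81.1 ± 6.49 CPM. Ehf, an epithelial ETS factor, had a total of 1 count at E10.5 and 1587 counts at E12.5 (ratio 1377, 95% exact counting interval 247 to 54410). S100a14, a calcium-binding protein of epithelia, had no count at E10.5 and measured 2.09, 9.99 and 4.33 CPM at E12.5, at least 157-fold higher when E10.5 is set at a limit of 3 counts for its 3 libraries together. Summed CPM of the suprabasal list was 84.4 to 117.5 at E10.5 and 217, 386 and 292 at E12.5.

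Ligands that pass between epithelium and mesenchyme changed in both directions. In the hedgehog pathway 8 of 16 genes were higher and 3 lower (median 0.91, against 0.06 over all genes). Of all tested genes 28.0% were higher and 25.5% lower. Shh, made by the oral epithelium, measured 6.50, 4.99 and 5.82 CPM at E10.5 and 15.3, 17.3 and 13.4 CPM at E12.5 (log2 fold change 1.41, SE 0.22, adjusted p = 0.000153), and its target Gli1 31.2, 23.5 and 46.1 CPM at E10.5 and 85.0, 68.5 and 78.4 CPM at E12.5 (log2 fold change 1.2, SE 0.18, adjusted p = 8.87e-05). No E12.5 library of either gene fell in the E10.5 range, and Shh shares 28.4% of its exon bases with another gene. The co-receptor Boc rose from 19.9 ± 2.08 to 55.0 ± 6.68 CPM, and Gas1 and the repressor Gli3 fell from 150.4 ± 14.6 to 93.0 ± 10.3 CPM and from 163 ± 10.8 to 112 ± 14.9 CPM. With the outside-gene share as covariate 4 were higher and 4 lower, and without E12.5 replicate 3 the count of lower genes was 6.

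Among 16 Wnt ligands 7 were higher and 3 lower (median 0.40), against 28.0% and 25.5% of all tested genes. Wnt9b, an epithelial ligand needed for lip fusion, measured 30.5, 20.6 and 24.0 CPM at E10.5 and 1.53, 1.92 and 3.83 CPM at E12.5 (log2 fold change -3.35, SE 0.29, adjusted p = 7.99e-07), and its chromosomal neighbour Wnt3 14.7, 10.5 and 10.2 CPM at E10.5 and 0.842, 1.47 and 2.00 CPM at E12.5 (log2 fold change -3.03, SE 0.24, adjusted p = 4.03e-07). Wnt11 rose from 3.93 ± 1.70 to 19.9 ± 2.17 CPM. Wnt5a, the main mesenchymal ligand, was not called at 74.5 ± 22.7 and 77.5 ± 5.31 CPM (adjusted p = 0.785), and its E11.5 mean was 268 CPM. Of 23 feedback and inhibitor genes 10 were higher and 8 lower (median 0.33). The transcription factors Lef1 and Tcf7 fell from 35.0 ± 7.17 to 12.8 ± 0.556 CPM and from 27.0 ± 5.32 to 8.52 ± 1.01 CPM, the feedback gene Axin2 from 79.6 ± 14.7 to 38.5 ± 5.59 CPM, and the receptor Lgr5 and the secreted inhibitor Sfrp2 rose from 8.35 ± 2.53 to 81.6 ± 17.7 CPM and from 60.3 ± 8.49 to 485 ± 78.8 CPM. Lef1 averaged 195 CPM at E11.5. With the outside-gene share as covariate 4 Wnt ligands were higher and 3 lower.

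Fgf8, the signal of the early facial ectoderm, measured 22.9, 19.6 and 28.9 CPM at E10.5 and 6.83, 3.67 and 2.67 CPM at E12.5 (log2 fold change -2.44, SE 0.37, adjusted p = 0.000107). Fgf9 rose from 3.94 ± 1.43 to 14.8 ± 3.33 CPM, Fgf18 from 0.942 ± 0.362 to 7.06 ± 1.76 CPM and Fgf2 from 1.43 ± 0.257 to 9.99 ± 2.88 CPM, while Fgf10 stood at 14.2 ± 2.63 and 14.5 ± 1.02 CPM (adjusted p = 0.837). Of 23 Fgf ligands and feedback genes 10 were higher and 3 lower (median 0.50), and 6 and 2 with the outside-gene share as covariate. Over all tested genes, the measure for this and the following lists, 28.0% were higher and 25.5% lower. In the BMP pathway 14 of 24 genes were higher and 3 lower (median 0.70). Noggin (Nog), a secreted inhibitor of the ligands, gave 1.05, 1.18 and 1.38 CPM at E10.5 and 5.83, 7.67 and 7.78 CPM at E12.5 (log2 fold change 2.55, SE 0.26, adjusted p = 3.86e-06), and follistatin (Fst), which also binds activin, 2.72, 3.40 and 1.05 CPM at E10.5 and 17.1, 30.2 and 25.9 CPM at E12.5 (log2 fold change 3.36, SE 0.29, adjusted p = 8.93e-07). The ligand Bmp2 rose from 2.81 ± 1.58 to 14.9 ± 3.68 CPM, Gdf6 fell from 14.4 ± 2.52 to 3.10 ± 0.308 CPM, and Bmp4 stood at 30.3 ± 7.19 and 28.1 ± 2.09 CPM (adjusted p = 0.526). Of 16 TGF-beta pathway genes 12 were higher and 1 lower (median 0.95). Tgfb2 rose from 17.1 ± 5.56 to 86.1 ± 11.6 CPM, Tgfb3, the ligand of shelf fusion, from 8.16 ± 0.903 to 34.6 ± 6.62 CPM, and Ltbp3, which holds latent ligand in the matrix, from 6.87 ± 2.10 to 78.9 ± 14.9 CPM, whereas the receptor Tgfbr1 fell from 303 ± 6.18 to 185 ± 19.1 CPM.

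Aldh1a2, which makes retinoic acid, measured 5.13, 3.29 and 9.77 CPM at E10.5 and 167, 114 and 147 CPM at E12.5 (log2 fold change 4.54, SE 0.29, adjusted p = 6.51e-08). Cyp26b1, which degrades it, gave 9.15, 8.95 and 7.34 CPM at E10.5 and 46.2, 53.8 and 63.8 CPM at E12.5 (log2 fold change 2.69, SE 0.13, adjusted p = 9.50e-09). The binding protein Crabp1 gave 471, 474 and 319.8 CPM at E10.5 and 166, 178 and 114 CPM at E12.5 (log2 fold change -1.47, SE 0.17, adjusted p = 1.31e-05). Both enzymes were higher in every E12.5 library than in any E10.5 library, and Crabp1 was lower. Crabp2 fell likewise, from 439 ± 92.9 to 166 ± 42.0 CPM. Over the 19 tested retinoic acid genes 7 were higher and 6 lower (median 0.08), against 28.0% and 25.5% of all tested genes, and 4 and 3 with the outside-gene share as covariate. In the insulin-like growth factor list 7 of 16 were higher and 2 lower (median 0.50, and 1 lower without E10.5 replicate 1 or E12.5 replicate 1). Igfbp5, a binding protein, had the largest rise in CPM of all tested genes, with 685, 536 and 786 CPM at E10.5 and 1654, 2516 and 2525 CPM at E12.5 (log2 fold change 1.74, SE 0.18, adjusted p = 4.77e-06). Igfbp3 rose from 35.7 ± 1.35 to 126 ± 26.9 CPM, and Igf2 from 41.0 ± 12.9 to 133 ± 58.5 CPM, though Igf2 shares 64.6% of its exon bases with other genes and its value is uncertain. Of 18 Notch genes 6 were higher and 2 lower (median 0.21), against 28.0% and 25.5% of all tested genes. Hes1 and the ligand Jag1 rose from 28.1 ± 5.18 to 52.3 ± 7.16 CPM and from 29.1 ± 3.92 to 55.5 ± 4.93 CPM, and Heyl fell from 32.8 ± 10.8 to 11.7 ± 1.49 CPM. With the outside-gene share as covariate, higher and lower genes numbered 11 and 1 in the BMP list, 9 and 1 in the TGF-beta list, 5 and 0 in the insulin-like growth factor list and 4 and 1 in the Notch list.

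**Figure D4:**
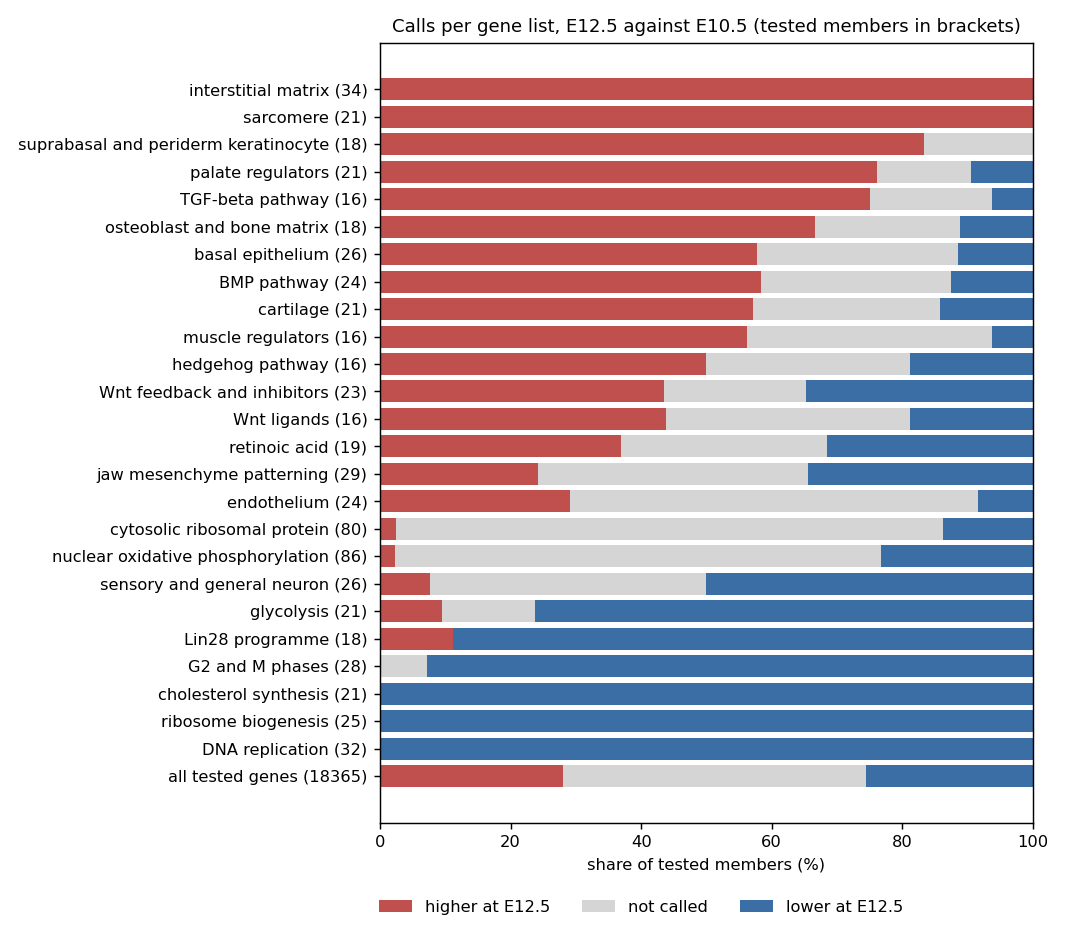
Share of tested members that were higher at E12.5 (red), not called (grey) or lower (blue) for 25 gene lists and, in the last bar, for all tested genes; brackets give the number tested. All 34 matrix and all 21 sarcomere genes were higher, and all 32 DNA replication, 25 ribosome biogenesis and 21 cholesterol synthesis genes were lower, against 28.0% higher and 25.5% lower over all genes.

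Beyond the lists, large rises included genes of secreted signals and of peptide processing. Penk, the precursor of enkephalins, measured 0.698, 1.15 and 1.48 CPM at E10.5 and 76.3, 88.7 and 78.3 CPM at E12.5 (log2 fold change 6.18, SE 0.20, adjusted p = 3.93e-10). Agtr2, an angiotensin receptor of fetal mesenchyme, gave 0.244, 0.148 and 0.263 CPM at E10.5 and 55.0, 82.0 and 65.7 CPM at E12.5 (log2 fold change 8.23, SE 0.34, adjusted p = 2.84e-09). Enpep, an aminopeptidase that cleaves angiotensin II, gave 0.279, 0.148 and 0.0987 CPM at E10.5 and 30.1, 33.7 and 26.1 CPM at E12.5 (log2 fold change 7.39, SE 0.25, adjusted p = 4.60e-10). All 3 were near 0 in each E10.5 library. The peptidase Mme rose from 52.5 ± 2.27 to 333 ± 24.6 CPM. Cyp2w1, a cytochrome P450, had a total of 3 counts at E10.5 and 1271 counts at E12.5 (ratio 368, 95% exact counting interval 126 to 1784). Among the largest falls, the homeobox gene Hmx1 went from 5.47 ± 1.26 to 0.102 ± 0.0985 CPM, the forkhead gene Foxi2, expressed in early cranial ectoderm, from 8.81 ± 1.71 to 0.0404 ± 0.0179 CPM, and the LIM factor Lmx1b from 16.9 ± 2.99 to 0.657 ± 0.626 CPM, with an E11.5 mean of 15.3 CPM. The predicted gene Gm10800 had a larger fitted fall than any of these, but its counts came almost wholly from E10.5 replicate 3 (0.0349, 0.0370 and 27.0 CPM at E10.5 and 0.0312, 0 and 0 CPM at E12.5), and without that library it was not called.

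Markers of other cell types shifted in several lists, and their part in the results above was not tested. Among 26 sensory and general neuron genes 13 were lower and 2 higher (median -1.37), with summed CPM of 725.5, 1370 and 858.5 at E10.5 and 207, 575 and 341 at E12.5. Of all tested genes 25.5% were lower and 28.0% higher. Pou4f1, the homeobox factor of sensory ganglia, measured 21.1, 41.0 and 25.2 CPM at E10.5 and 0.655, 2.14 and 0.552 CPM at E12.5 (log2 fold change -4.70, SE 0.80, adjusted p = 0.000267). Neurod4, a neurogenic factor, gave 11.8, 22.7 and 13.1 CPM at E10.5 and 0.0312, 0.0611 and 0.116 CPM at E12.5 (log2 fold change -7.73, SE 1.07, adjusted p = 9.80e-05), and the neuropeptide Sst 15.2, 30.9 and 21.7 CPM at E10.5 and 0, 0.214 and 0.0581 CPM at E12.5 (log2 fold change -7.90, SE 0.72, adjusted p = 1.38e-06). E10.5 replicate 2 was the highest library for all 3, and no library overlapped. The count of lower neuron genes was 7 without E10.5 replicate 2, 8 without E12.5 replicate 1, 7 without E12.5 replicate 3, 8 with total-count scaling and 6 with the outside-gene share as covariate. It was 16 without E12.5 replicate 2, with limma-voom and with replicate number as a block, and 19 with the block over the compared stages. The receptor Ntrk2 went against the list and rose from 13.6 ± 3.12 to 33.9 ± 7.32 CPM. Autonomic neuron genes went the other way, with 9 of 16 higher and 3 lower (median 1.36, and 6 and 1 with the outside-gene share as covariate). Dbh, which makes noradrenaline, had a total of 3 counts at E10.5 and 514 counts at E12.5 (ratio 149, 95% exact counting interval 50.6 to 723). The lower members were Th, with means of 3.38 CPM at E10.5 and 0.814 CPM at E12.5, Gata3 (19.3 and 6.82 CPM) and Cartpt (1.27 and 0.173 CPM). The brain, eye and olfactory list had 8 of 16 higher (median 1.04), but 2 without E12.5 replicate 2, 4 without E10.5 replicate 2, 5 without E10.5 replicate 1, 6 with replicate number as a block and 1 with the outside-gene share as covariate. The forebrain gene Otx2 gave 4.05, 3.77 and 4.61 CPM at E10.5 and 3.12, 28.3 and 16.2 CPM at E12.5, and its libraries overlapped.

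Of 24 endothelial genes 7 were higher and 2 lower (median 0.27), a higher share near that of all genes and a lower share below it. The higher genes numbered 12 without E10.5 replicate 3, 10 with replicate number as a block and 1 with the outside-gene share as covariate, and the lower ones 1 without E10.5 replicate 1 or 3 or E12.5 replicate 1 and 0 without E12.5 replicate 2. Kdr stood at 66.6 ± 18.2 and 54.8 ± 15.7 CPM (adjusted p = 0.271). The lymphatic factor Prox1 rose from 6.54 ± 1.48 to 15.7 ± 3.07 CPM. Of 12 pericyte and smooth muscle genes 6 were higher and 2 lower (median 0.54), against 28.0% and 25.5% of all tested genes. Rgs5 and Cspg4 rose from 3.70 ± 0.803 to 18.8 ± 3.77 CPM and from 3.19 ± 0.582 to 17.2 ± 3.37 CPM. Heyl and Vtn fell, from means of 32.8 to 11.7 CPM and of 3.65 to 0.495 CPM, and Notch3 was not called, at 136 and 137 CPM (adjusted p = 0.931). The macrophage list had 8 higher and 1 lower of 20 tested (median 0.47), 4 and 1 with the outside-gene share as covariate, with C1qa rising from 4.30 ± 0.751 to 9.93 ± 1.23 CPM and Cx3cr1 falling from 10.6 ± 0.536 to 6.55 ± 1.42 CPM. Of 13 globin and erythroid genes 4 were higher and 4 lower (median -0.17), against 28.0% and 25.5% of all tested genes. Hbb-bh1, an embryonic beta globin of yolk sac red cells, measured 1135, 1365 and 1152 CPM at E10.5 and 205, 75.2 and 87.6 CPM at E12.5 (log2 fold change -3.31, SE 0.33, adjusted p = 3.29e-06). Hbb-bs, an adult beta globin, gave 1.99, 4.18 and 16.1 CPM at E10.5 and 69.6, 241 and 122 CPM at E12.5 (log2 fold change 4.26, SE 0.69, adjusted p = 0.000184). The other embryonic globins of the list were not called: Hbb-y had means of 1692 and 2113 CPM (adjusted p = 0.260) and Hba-x of 705 and 514 CPM (adjusted p = 0.253). The summed CPM of the whole globin and erythroid list overlapped between stages, at 3852 to 4415 and 3079 to 4134, and counts within this family depend on how similar copies were treated. Of 8 melanocyte genes none was higher and 1 lower (2 higher without E10.5 replicate 1 and 2 lower without E10.5 replicate 3), with at most 8.31 CPM summed over the list. Of 13 Schwann cell and crest glia genes 6 were higher and 2 lower (median 0.45, and 0 lower without E10.5 replicate 2, 1 without E12.5 replicate 2 or 3 or with replicate number as a block).

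**Figure D5:**
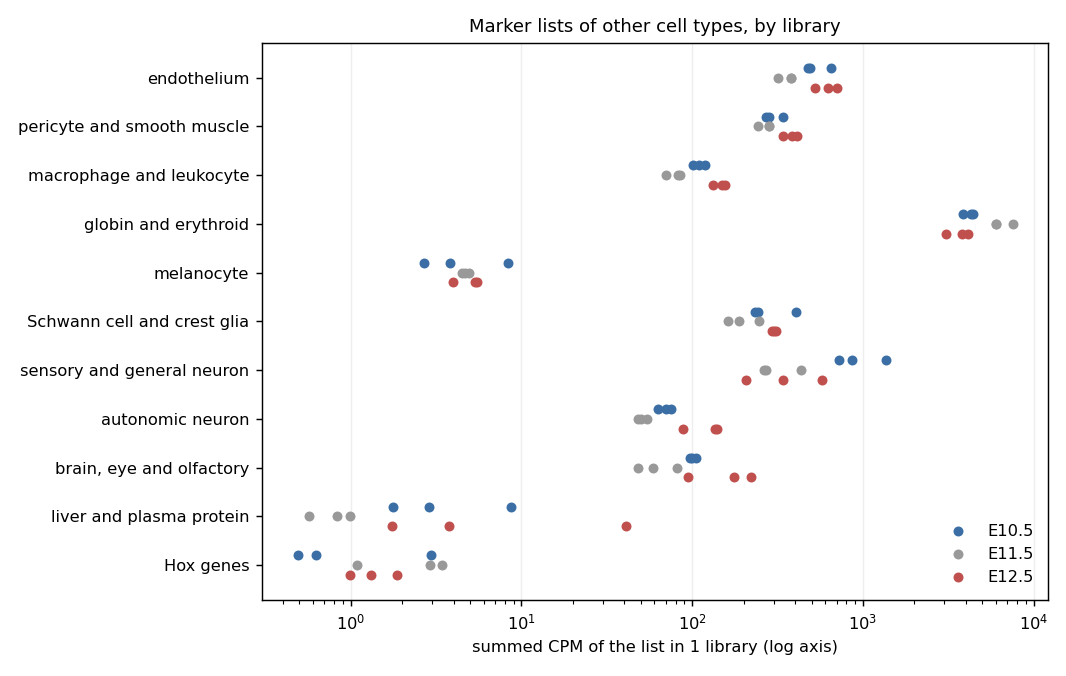
Summed CPM of marker lists of other cell types in each library on a log axis, for E10.5 (blue), E11.5 (grey) and E12.5 (red). Sensory and general neuron sums are lower at E12.5 than at E10.5 in every library, and liver and plasma protein genes stand out in 1 E12.5 library at 41 CPM.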

How the data were processed

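Whole-gene counts of poly-A RNA from 12 libraries were used as deposited. The authors' files hold raw counts per gene, and FastQC, STAR 2.7.3a, HTSeq 0.12.4 and mm10 stand in the submitters' processing notes. The annotation release was not given in the sources used here, nor was the strand setting. The library kit does not mark strand. The closing entries of each file that name no gene held 14.33% to 18.57% of the totals in the 6 compared libraries and stayed out of library sizes and tests.

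Counts were fitted for all 12 libraries with 1 mean per stage by edgeR 4.0.16 in R 4.3.3 (quasi-likelihood test, TMM scaling, Benjamini-Hochberg adjustment over all tested genes, threshold 0.05), after a filter with a minimum count of 10. The spread is thus shared by all 4 stages, on 8 residual degrees of freedom. The comparison and the gene lists were chosen with earlier results of these data known, so no list is independent evidence. Lists are described by counts and medians, to be read against those of all tested genes.

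Named genes are the 12 largest rises and falls among coding genes of at least 5 CPM whose stages do not overlap, up to 4 leading and 2 opposite members of each list, the 8 largest differences in CPM and the 6 smallest adjusted p-values in each direction, and a short set of known genes. List members named beyond these were chosen after their values were seen, among them the genes without a call and those with printed mitosis, replication and muscle promoters other than Top2a and Cdc6. Same-numbered E10.5 and E12.5 libraries deviated together (correlations 0.126, 0.275 and 0.315, against -0.291 to -0.008 for other pairs), so a fit with replicate number as a block was run. Deviations from a stage mean cancel out within each gene, so positive values for same-numbered libraries force negative ones among other pairs. The other pairs are thus no separate support for the pairing. This pairing comes from the data, since the labels do not say what a number shares. Gene positions are those of a GENCODE annotation on mm10 matched by identifier, and promoter sequence is RefSeq's. Alternatives were other scaling, filters, tools (DESeq2 1.42.0, limma 3.58.1), covariates and leaving out each library. Scripts were tested on simulated data. Some genes are not reported here.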

Additional observations from a re-analysis of the deposited data

How the results depend on the processing

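No gene called in the comparison was called in the opposite direction under any alternative, but the number of calls moved with several of them. With the share of alignments outside genes as covariate the higher genes numbered 2754 (1725 at least 2-fold) and the lower ones 2861 (552 at least 2-fold), and 5321 of the 9824 calls were kept. With E10.5 replicate 3, the E10.5 library with a share like that of E12.5, alone for its stage (its spread taken from the other stages), 3126 were higher and 3072 lower, and the cause of both drops was not tested. Total-count scaling gave 7295 higher and 2565 lower, 3726 and 435 at least 2-fold, and a stricter filter left 509 at least 2-fold lower among 14401 tested genes. Leaving out each library gave 4411 to 5453 higher and 4168 to 4773 lower, with 2502 to 3216 and 657 to 899 at least 2-fold. With replicate number as a block, 5140 genes were higher and 4770 lower (4597 and 4397 over the compared stages alone), and for genes named in the text the block over all libraries changed no other call than those given beside Sox9, Cdkn1a and Afp. Fitting the compared stages alone gave 4030 and 3554, DESeq2 4925 and 4889, limma-voom 5117 and 4722, size factors of DESeq2 5011 and 4834, no filter 5183 and 4743, leaving out globin and mitochondrial genes 5136 and 4673, and Xist level as covariate 4981 and 4479. The reversed values were uncalled genes: Eef1a1 at a log2 fold change of 0.05 with total counts (-0.19 with TMM) and Xist at -0.21 with its own level as covariate (1.31 without). Small falls near the threshold and genes of few counts are limited by 3 libraries a stage.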

Other observations

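Imprinted genes, many of which control fetal growth, rose more often than they fell: of 24 tested 14 were higher and 6 lower, with a median log2 fold change of 0.71. Of all tested genes 28.0% were higher and 25.5% lower. Plagl1, a zinc finger gene at the centre of an imprinted network, measured 95.4, 87.3 and 132 CPM at E10.5 and 350.5, 364 and 351 CPM at E12.5 (log2 fold change 1.76, SE 0.13, adjusted p = 2.00e-07). The noncoding RNA Meg3 gave 11.2, 7.13 and 23.4 CPM at E10.5 and 77.5, 66.8 and 67.1 CPM at E12.5 (log2 fold change 2.33, SE 0.29, adjusted p = 2.01e-05), and its neighbour Dlk1, expressed from the other parental chromosome, 65.8, 57.7 and 68.2 CPM at E10.5 and 114, 131 and 139.9 CPM at E12.5 (log2 fold change 1.00, SE 0.14, adjusted p = 5.64e-05). No library of these 3 genes overlapped between stages. H19 rose from 1306 ± 68.0 to 2253 ± 300.5 CPM and Mest fell from 1099 ± 115 to 634 ± 91.2 CPM. The count of lower imprinted genes was 3 without E10.5 replicate 3 and 3 without E12.5 replicate 2. Of 9 nuclear retained RNAs 7 were higher and none lower, as for Neat1 (1.75, 1.07 and 2.93 CPM at E10.5 and 7.76, 6.57 and 5.61 CPM at E12.5, log2 fold change 1.78, SE 0.27, adjusted p = 0.000110), and 5 were higher with the share of alignments outside genes as covariate.

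Immediate early genes, which respond quickly to signals, had 9 higher and 3 lower of 19 tested (median 0.24), and 2 and 3 with that covariate. Without it, the shares over all tested genes were 28.0% higher and 25.5% lower. Of 5 tested liver and plasma protein genes 3 were higher, and 1 without E12.5 replicate 1. Of 6 tested markers linked to the X or Y chromosome 1 was higher.

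Xist, the RNA that silences 1 X chromosome in female cells, measured 555, 0.0739 and 359.8 CPM at E10.5 and 1287, 9.38 and 969 CPM at E12.5 and was not called (log2 fold change 1.31, SE 1.40, adjusted p = 0.450). Replicate 2 was the low library at both stages. Afp, a plasma protein of liver and yolk sac, gave 0.384, 0.444 and 0.789 CPM at E10.5 and 27.6, 1.16 and 0.378 CPM at E12.5, with 1 library far above the others, and its call ended without E10.5 replicate 1, without E12.5 replicate 1 and with replicate number as a block (adjusted p = 0.0869).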
